A study of Homo sapiens with 6 samples.

Results

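MHC class I molecules display peptides from inside the cell on its surface, and 9 genes that build and load them were followed in RNA-SEQ libraries of NALM6, a human cell line from B cell precursor acute lymphoblastic leukemia. The genes were taken by name, with earlier results of these data known but with no threshold on their values, and are the heavy chains HLA-B, HLA-C, HLA-E and HLA-F, the light chain B2M, the peptide transporter subunits TAP1 and TAP2, the loading protein TAPBP (tapasin) and the transcriptional regulator NLRC5. All 9 were among the 57905 genes of the count table and among the 16622 genes that passed the filter on low counts and were tested. The cells, a line with no engineered change named in the labels, received the solvent DMSO in 3 libraries or 500 nM of THZ1, a covalent inhibitor of the transcriptional kinase CDK7, in 3 libraries, each for 24 h. The comparison asks how the expression of these genes differed after THZ1 treatment. The labels do not say whether the libraries came from separate cultures, so the p-values measure the spread between these libraries, which may be technical.

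The DMSO libraries held 11015480 to 11164840 counts on genes and the THZ1 libraries 7876402 to 8314306, so every control library was deeper. Values are given in CPM, the count in relation to the TMM-adjusted library size, and a floor of 3 counts was worth up to 0.253 CPM with DMSO and 0.415 CPM with THZ1, which covers counting error only. The 11 markers of B cell precursors were all detected and their summed level was 4005 to 4165 CPM after DMSO and 2116 to 2187 CPM after THZ1. Of these, 8 were lower and 2 higher, beside 41.1% lower and 43.5% higher over all genes tested. The 4 T cell markers had at most 5 counts in any library, and the NK cell markers NCAM1 and KLRD1 had 0. The 4 myeloid markers summed to 3.80 to 4.51 CPM with DMSO and 10.7 to 15.1 CPM with THZ1, and they did not move together. CD14 had 7 to 9 counts with DMSO and 58 to 71 with THZ1, LYZ was lower (log2 fold change −0.83), MPO was not called (0.16) and ITGAM, with at most 22 counts, was not tested. A further NK cell marker, NKG7, lay between 7.09 and 13.3 CPM in the 6 libraries, the erythroid marker HBB had at most 3 counts, and the stromal marker COL1A1 rose from 3.71 ± 0.592 to 15.7 ± 0.283 CPM (SD, n = 3). The part of these markers in the results on class I genes was not tested, and in bulk RNA fewer cells of a type and less RNA per cell cannot be told apart.

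A class I molecule is a heavy chain held by B2M. Peptides cut by the proteasome are carried into the endoplasmic reticulum by a transporter made of TAP1 and TAP2, and tapasin bridges the transporter to the waiting heavy chain. HLA-B and HLA-C are the classical, highly polymorphic chains, HLA-E is read by NK cell receptors, and HLA-F is a less abundant non-classical chain. NLRC5 is the class I transactivator, which does not bind DNA itself but sits on a complex of RFX, CREB/ATF and NF-Y proteins at class I promoters, whereas interferon regulatory factors and NF-kB bind further elements there.

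The promoter stretches of the genes are shown because the members share short elements there and yet moved in different directions. RefSeq promoter windows, which run from 250 bases before to 50 bases after a start site in GRCh38.p14, were matched for 7 of the 9 genes, all except HLA-E and NLRC5. TAP1 had 2 windows with different starts. Statements on TAP1 concern the window shown, as the other held no match. Capitals mark letters that match, on either strand, the interferon regulatory factor element (GAAA, any 2 bases, GAAA), the kB motif, the CREB/ATF core TGACG or the NF-Y core CCAAT, and bases are counted from the start site.
HLA-B, chr6:31357220-31357379, minus strand, bases −200 to −41: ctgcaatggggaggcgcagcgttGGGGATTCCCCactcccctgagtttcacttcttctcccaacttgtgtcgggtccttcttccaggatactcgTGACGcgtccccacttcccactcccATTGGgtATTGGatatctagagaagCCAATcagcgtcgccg
HLA-C, chr6:31272133-31272292, minus strand, bases −200 to −41: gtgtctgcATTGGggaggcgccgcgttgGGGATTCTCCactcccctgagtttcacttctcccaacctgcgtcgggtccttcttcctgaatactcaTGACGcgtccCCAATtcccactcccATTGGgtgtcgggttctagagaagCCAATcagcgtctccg
B2M, chr15:44711365-44711480, plus strand, bases −152 to −37: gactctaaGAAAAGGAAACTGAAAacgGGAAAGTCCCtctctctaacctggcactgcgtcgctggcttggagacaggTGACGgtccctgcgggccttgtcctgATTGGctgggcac
HLA-F, chr6:29723234-29723393, plus strand, bases −200 to −41: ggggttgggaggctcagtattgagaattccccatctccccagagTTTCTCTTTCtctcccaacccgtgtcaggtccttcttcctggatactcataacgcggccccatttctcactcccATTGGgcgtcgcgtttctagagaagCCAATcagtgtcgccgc
TAP1, chr6:32853759-32853846, minus strand, bases −142 to −55: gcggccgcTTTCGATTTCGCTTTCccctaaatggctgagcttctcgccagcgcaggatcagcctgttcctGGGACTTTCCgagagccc
TAP2, chr6:32838762-32838805, minus strand, bases −66 to −23: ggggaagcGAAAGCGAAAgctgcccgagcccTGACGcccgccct
TAPBP, chr6:33314079-33314142, minus strand, bases −64 to −1: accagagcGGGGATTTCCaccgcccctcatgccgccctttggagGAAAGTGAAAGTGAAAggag
HLA-B and HLA-C carried TGACG and CCAAT within the same short stretch, with TGACG beginning at −106 and −105, and HLA-F had CCAAT but no TGACG in this window. Of 35116 promoter windows of the same length, 3.57% held the interferon regulatory factor element, 11.3% the kB motif, 24.6% TGACG and 34.6% CCAAT. The kB motif was found in the windows of HLA-B, HLA-C, B2M, TAP1 and TAPBP, and the interferon regulatory factor element in those of HLA-F, B2M, TAP1, TAP2 and TAPBP. Overlapping copies of this element were found in B2M, TAP1 and TAPBP. A match is a description of the letters and not a bound site. The search took exact letters, so a window without a match, as in HLA-B and HLA-C, may still hold a variant of the interferon element.

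With THZ1, the 9 genes split. By edgeR's quasi-likelihood test at an adjusted p-value below 0.05, 4 were higher (HLA-B, HLA-C, HLA-E and B2M), 3 were lower (HLA-F, TAP2 and NLRC5) and 2 were not called (TAP1 and TAPBP). Over all genes tested 84.5% were called, 43.5% higher and 41.1% lower, so 7 calls among 9 genes is close to the background. The values of the treatments did not overlap for 8 of the 9 genes, against 84.7% of all genes tested. The median log2 fold change of the 9 genes was 0.13, beside 0.03 over all genes tested, whose quartiles were −0.90 and 1.46. TAP2, NLRC5 and HLA-F lay below the lower quartile, with 9.86%, 9.99% and 22.4% of all genes having a lower log2 fold change, and none of the 9 lay above the upper quartile. Together the 9 genes took 0.212% to 0.238% of the counts of a DMSO library and 0.232% to 0.242% of a THZ1 library, ranges that overlap.

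**Figure D1:**
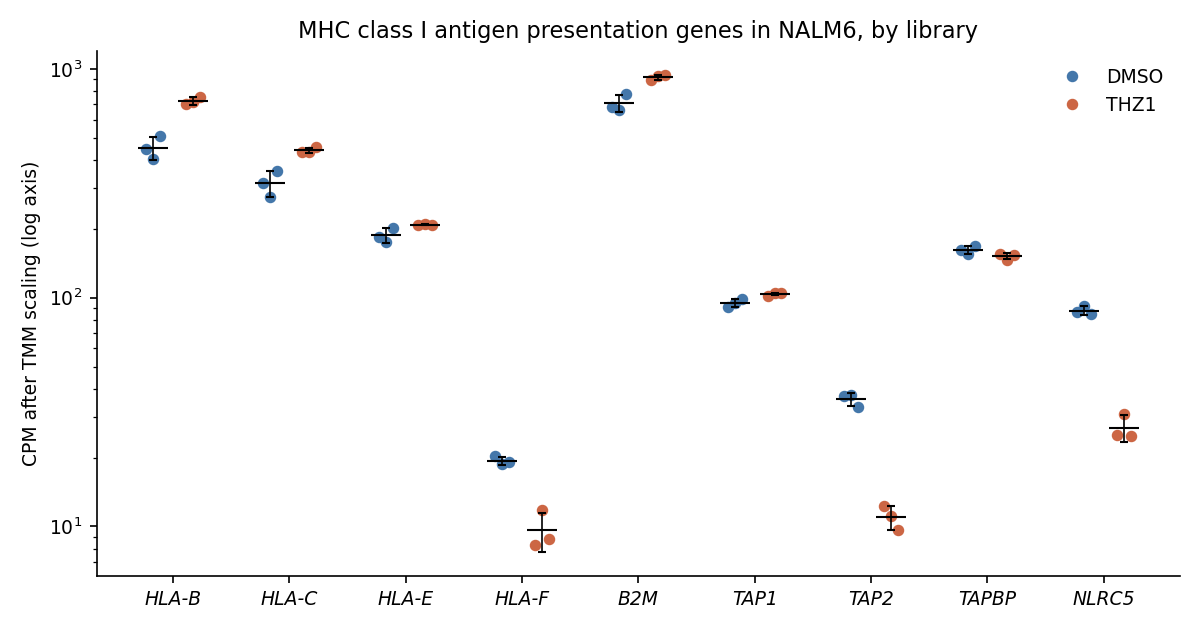
Level of each gene in each library, in CPM after TMM scaling on a log axis, with DMSO libraries in blue, THZ1 libraries in orange and the mean ± SD of 3 libraries in black. HLA-B, HLA-C and B2M sit higher with THZ1, HLA-F, TAP2 and NLRC5 sit lower, and TAPBP overlaps.

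HLA-B (ENSG00000234745) lies on chromosome 6 from 31321649 to 31334844 in GRCh37, on the minus strand. It had 445, 403 and 507 CPM in the DMSO libraries and 700.4, 716 and 755 CPM in the THZ1 libraries. Every THZ1 library was above every DMSO library, and the DMSO libraries spread more than the THZ1 libraries. The log2 fold change was 0.68 (SE 0.07, edgeR adjusted p = 6.2e-10), a 1.60-fold rise, and it was the highest of the 9 genes, with 64.3% of all genes tested below it. HLA-C (ENSG00000204525, chromosome 6 from 31236526 to 31239907, minus strand) had 317, 275 and 358 CPM after DMSO and 432, 433 and 454 CPM after THZ1. Again the treatments did not overlap, and the log2 fold change was 0.47 (SE 0.08, edgeR adjusted p = 1.1e-06). In TPM, given further on with the levels per length, the mean of HLA-B hardly moved and those of HLA-C and B2M were lower with THZ1. B2M (ENSG00000166710), the common light chain, lies away from the other class I genes on chromosome 15 from 45003556 to 45011049, on the plus strand. It had 681, 663 and 777 CPM with DMSO and 890.1, 929 and 935 CPM with THZ1. It rose 1.30-fold, with a log2 fold change of 0.38 (SE 0.07, edgeR adjusted p = 1.0e-05), but with unscaled library sizes in place of TMM its log2 fold change was 0.13 and the call was lost (edgeR adjusted p = 0.0505).

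HLA-E (ENSG00000204592, chromosome 6 from 30457286 to 30461971, plus strand) had 183, 175 and 202 CPM after DMSO and 208, 209 and 208 CPM after THZ1. The highest DMSO library was close to the THZ1 libraries, which were nearly equal to each other. The log2 fold change was 0.16 (SE 0.07, edgeR adjusted p = 0.038), a call at the edge of the threshold whose direction turned with unscaled library sizes (−0.090) and in FPKM values of the second deposited table (−0.095, called lower by limma). The call was lost without DMSO replicate 1 (0.13), without DMSO replicate 2 (0.09) and without THZ1 replicate 1, 2 or 3 (0.15, 0.14 and 0.15), all as log2 fold changes. HLA-F (ENSG00000204642, chromosome 6 from 29690552 to 29706305, plus strand) went the other way. It had 20.3, 18.7 and 19.1 CPM with DMSO and 8.28, 11.8 and 8.82 CPM with THZ1, from raw counts of 226 to 245 and of 63 to 85. All THZ1 libraries were below all DMSO libraries, with THZ1 replicate 2 the highest of its treatment. The log2 fold change was −1.01 (SE 0.15, edgeR adjusted p = 1.9e-07), a 2.01-fold fall, and it stayed between −1.55 and −0.82 under the alternatives. HLA-F was thus the heavy chain that fell while HLA-B and HLA-C rose in CPM. This difference needs no scaling between libraries when taken as a ratio of counts, as given further on.

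Class I heavy chains are near-identical over long stretches and differ between people, so reads can be shared between them or lost when mapped to a reference, and their counts carry that uncertainty. The strand setting of the counting is not given in the sources used here. On the opposite strand to HLA-B, the pseudogene ENSG00000271581 shares 671 exon bases with it (14.5% of the exon bases of HLA-B), with 2243 to 2504 counts after DMSO and 2533 to 2663 after THZ1 and a log2 fold change of 0.80. On the opposite strand to HLA-F, ENSG00000225864 shares 674 exon bases and fell from 9.77 ± 0.601 to 2.74 ± 0.320 CPM (SD, n = 3), with a log2 fold change of −1.83, and HLA-F-AS1 shares 535 exon bases and had a log2 fold change of −0.09. With the counts of such pairs summed, an alternative chosen after the data were seen, the log2 fold change was 0.72 for HLA-B and −1.12 for HLA-F. On the same strand, an untested pseudogene shares 1421 exon bases (30.7%) with HLA-B and had at most 2 counts in a library. How reads in bases shared on the same strand were counted is not given.

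Of the transporter, TAP2 fell while TAP1 was not called. TAP2 (ENSG00000204267, chromosome 6 from 32789610 to 32806516, minus strand) had 37.3, 37.4 and 33.2 CPM with DMSO and 12.2, 11.1 and 9.63 CPM with THZ1. The treatments were far apart compared with their spread. TAP2 had a log2 fold change of −1.71 (SE 0.12, edgeR adjusted p = 4.8e-14), a 3.27-fold fall. An untested gene on the same strand shares 2023 exon bases (19.5%) with TAP2 and had at most 5 counts in a library. TAP1 (ENSG00000168394, chromosome 6 from 32812986 to 32821593, minus strand) had 90.9, 94.4 and 98.5 CPM after DMSO and 102, 105 and 105 CPM after THZ1. Its THZ1 libraries lay just above its DMSO libraries without overlap. The log2 fold change was 0.13 (SE 0.07, 95% interval −0.01 to 0.28, edgeR adjusted p = 0.094), and its sign depended on the scaling, being −0.11 with unscaled library sizes and 0.33, called higher, with upper quartile factors. PSMB8-AS1, an antisense RNA, shares 672 exon bases with TAP1 and fell from 45.8 ± 6.42 to 33.4 ± 6.84 CPM (SD, n = 3), with a log2 fold change of −0.45, and with its counts added to those of TAP1 the log2 fold change was −0.03.

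Within each library, the count of TAP1 was 2.44, 2.53 and 2.97 times that of TAP2 with DMSO and 8.34, 9.44 and 10.9 times with THZ1. The ratio was higher in every THZ1 library, by 1.85 on the log2 scale or 3.60-fold (p = 0.1 by an exact permutation test, two-sided, the lowest value that this design of 3 against 3 can give, and 0.1 after Benjamini-Hochberg adjustment over 10 ratios). TAPBP (ENSG00000231925, chromosome 6 from 33267471 to 33282061, minus strand) had 162, 155 and 168 CPM after DMSO and 155, 146 and 154 CPM after THZ1. These ranges overlap. The log2 fold change of TAPBP was −0.09 (SE 0.07, 95% interval −0.22 to 0.05, edgeR adjusted p = 0.25), and it was −0.33, called lower, with unscaled library sizes and 0.11 with upper quartile factors.

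NLRC5 (ENSG00000140853) lies on chromosome 16 from 57023397 to 57117443, on the plus strand. It had 86.2, 92.3 and 84.7 CPM with DMSO and 25.1, 31.1 and 24.9 CPM with THZ1. All THZ1 libraries lay far below all DMSO libraries. Its log2 fold change was −1.70 (SE 0.09, edgeR adjusted p = 7.4e-17), a 3.25-fold fall, and it stayed between −2.21 and −1.51 under the alternatives. The class I transactivator thus fell in the same libraries in which HLA-B, HLA-C and B2M rose in CPM after TMM scaling. The mean TPM of HLA-B, HLA-C and B2M was not higher with THZ1, and neither measure gives RNA per cell.

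**Figure D2:**
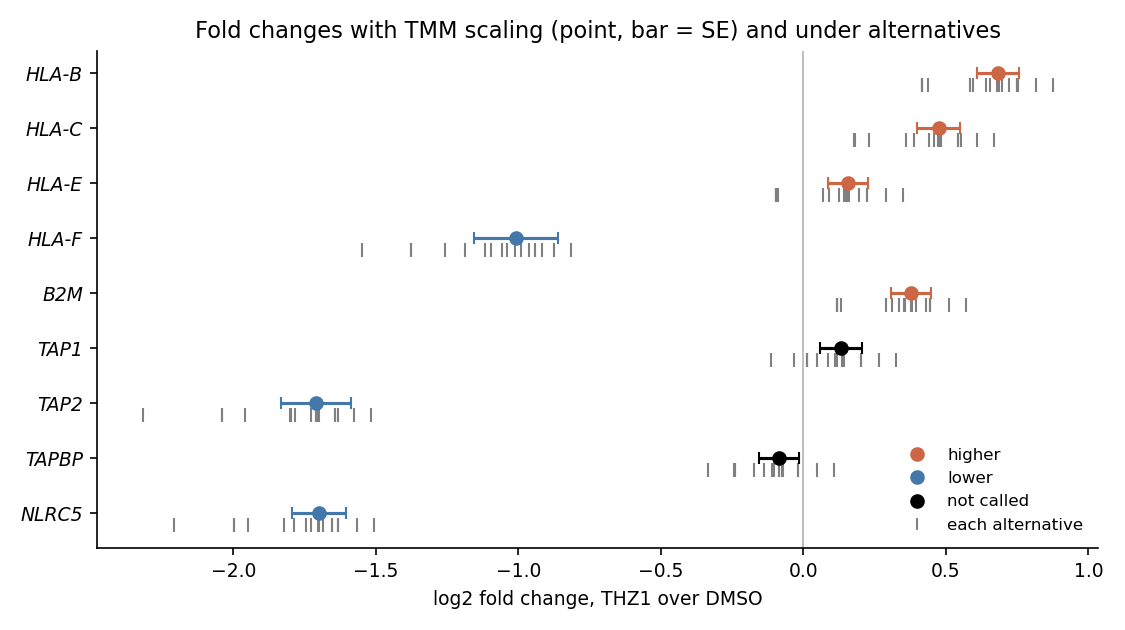
Log2 fold change of each gene, THZ1 over DMSO, with TMM scaling as a point with its standard error, coloured by the edgeR call, and the value under each alternative as a grey tick. HLA-B and HLA-C stay right of 0 and HLA-F, TAP2 and NLRC5 left of 0 in all alternatives plotted, whereas the ticks of HLA-E, TAP1 and TAPBP lie on both sides.

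Proteins that bind class I promoters, among them those that carry NLRC5, were examined in a list of 15 regulators, of which 11 fell, 2 rose and 2 were not called, with a median log2 fold change of −0.62 beside 0.03 over all genes. The background for this and the later lists is 41.1% lower and 43.5% higher over all genes tested. The 3 subunits of the RFX complex all fell. RFX5, the DNA-binding subunit, went from 118 ± 5.67 to 47.0 ± 0.859 CPM (SD, n = 3), with a log2 fold change of −1.33 (SE 0.08, edgeR adjusted p = 4.5e-16), and RFXAP and RFXANK had log2 fold changes of −1.45 and −1.49. CREB1, which binds the TGACG core, fell by 1.56 on the log2 scale. CIITA, the class II transactivator and a relative of NLRC5, was the lowest of the list, from 123 ± 7.18 to 20.7 ± 0.477 CPM (SD, n = 3), with a log2 fold change of −2.57. The subunits of the CCAAT-binding NF-Y were split. NFYA rose from 85.7 ± 6.73 to 184 ± 4.74 CPM (SD, n = 3), a log2 fold change of 1.11 (SE 0.07, edgeR adjusted p = 6.7e-15), and NFYB fell by 0.62 on the log2 scale (edgeR adjusted p = 5.7e-06). NFYC fell by 0.25 (edgeR adjusted p = 0.011), a call lost with RLE factors (−0.18), upper quartile factors (−0.052), DESeq2 (−0.18), the stricter count filter (−0.11) and without THZ1 replicate 2 (−0.18). IRF1, an interferon-inducible activator of class I genes, fell by 0.28 on the log2 scale (edgeR adjusted p = 0.0029), a call lost with upper quartile factors (−0.09) and when each library had to hold 10 counts of a gene (−0.15), and IRF2 fell by 1.03. Of the NF-kB subunits, NFKB1 fell by 0.62 on the log2 scale and RELA was not called (0.06), its sign depending on the scaling, with −0.19, called lower, for unscaled library sizes and 0.25, called higher, for upper quartile factors.

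**Figure D3:**
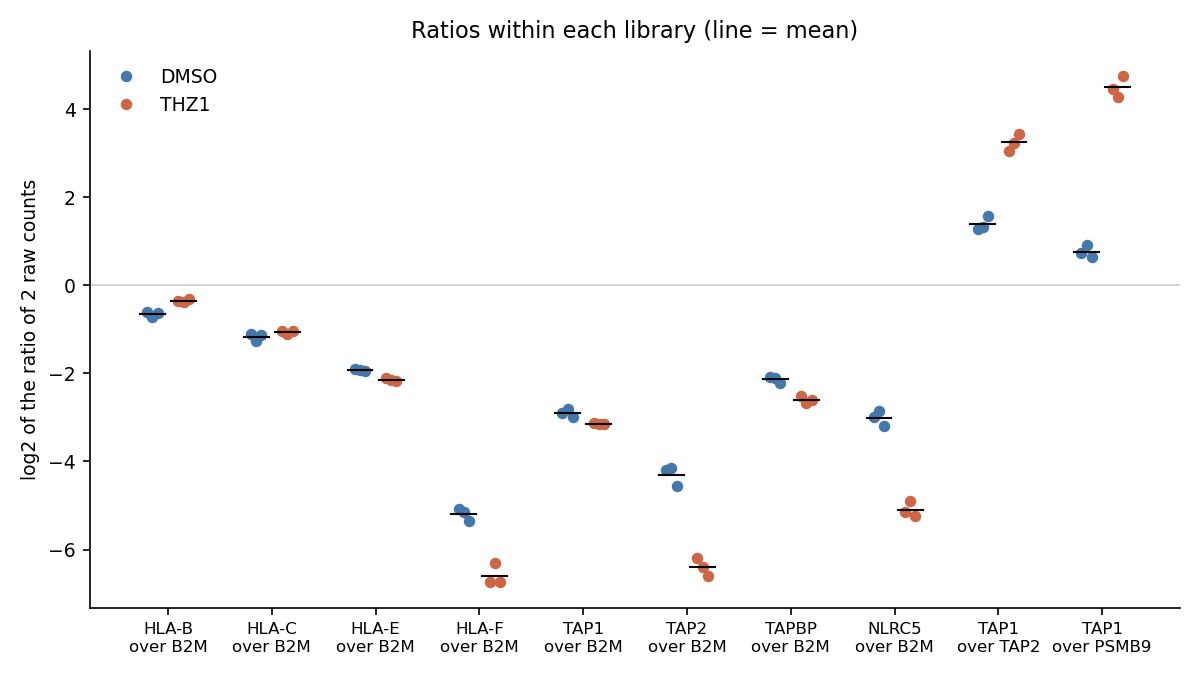
Log2 of the ratio of 2 raw counts within each library, with DMSO libraries in blue, THZ1 libraries in orange and lines at the means. None of the 10 ratios overlaps between treatments, although the treatments nearly meet for HLA-C over B2M. The gaps are widest for TAP1 over PSMB9, TAP2 over B2M and NLRC5 over B2M.

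Ratios of counts within a library do not depend on the scaling between libraries. With THZ1, the log2 ratio of HLA-B to B2M was higher by 0.31 (1.24-fold) and that of HLA-C by 0.10, in all 3 libraries. The treatments nearly met for HLA-C, whose ratio to B2M was 0.4656 in DMSO replicate 1 and 0.4663 in THZ1 replicate 2. The log2 ratios of HLA-E, TAP1 and TAPBP to B2M differed by −0.22, −0.25 and −0.47, so the genes whose direction depended on the scaling were all lower against the light chain in every THZ1 library. The differences were −1.40 for HLA-F, −2.10 for TAP2 and −2.09 for NLRC5, that is 2.65-fold, 4.28-fold and 4.25-fold lower relative to B2M. Each ratio separated the 3 THZ1 from the 3 DMSO libraries, with a two-sided exact permutation p = 0.1 for each, the smallest possible, and 0.1 after adjustment over 10 ratios, so none could pass a threshold of 0.05 in this design. The 4 heavy chains and B2M together took 0.170% to 0.198% of all counts with DMSO and 0.205% to 0.215% with THZ1, without overlap.

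TAP2, PSMB8, TAP1 and PSMB9 follow each other in the class II region of chromosome 6, and their log2 fold changes in that order were −1.71, −0.47, 0.13 and −3.59. PSMB8 and PSMB9 are catalytic subunits of the immunoproteasome, the proteasome form that cuts many class I peptides. PSMB9 (ENSG00000240065, from 32811913 to 32827628, plus strand) had 54.9, 49.9 and 62.5 CPM with DMSO and 4.60, 5.40 and 3.88 CPM with THZ1, from 609 to 741 and from 29 to 39 raw counts. It fell to 0.0830 of its control level, with a log2 fold change of −3.59 (SE 0.14, edgeR adjusted p = 1.0e-20). TAP1 is read on the minus strand and PSMB9 on the plus strand. In GRCh38.p14 the RefSeq start site of the TAP1 window shown and that of PSMB9 are 488 bases apart. The annotated spans of TAP1 and PSMB9 overlap in GRCh37 but share 0 exon bases. Within each library TAP1 had 1.66, 1.89 and 1.57 times the count of PSMB9 with DMSO and 22.2, 19.4 and 27.0 times with THZ1, a difference of 3.73 on the log2 scale (p = 0.1 by the same exact permutation test). PSMB8 (ENSG00000204264, from 32808494 to 32812456, minus strand) fell from 107 ± 10.4 to 77.1 ± 3.36 CPM (SD, n = 3), with a log2 fold change of −0.47 (SE 0.08, edgeR adjusted p = 3.4e-06).

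Of the 5 immunoproteasome and PA28 genes, 4 fell, none rose and 1 was not called, with a median log2 fold change of −0.48. PSME1 and PSME2, which form the PA28 activator, had log2 fold changes of −0.48 and −1.14, while PSMB10, the remaining catalytic subunit, had 16.3, 20.4 and 20.3 CPM after DMSO and 20.0, 24.5 and 21.5 CPM after THZ1, ranges that overlap, and a log2 fold change of 0.21 (SE 0.13, edgeR adjusted p = 0.12). PSMB10 turned to −0.038 with unscaled library sizes and was called higher with RLE factors (0.28), upper quartile factors (0.40) and when each library had to hold 10 counts of a gene (0.34). Of the 3 constitutive subunits that these replace, PSMB6, the counterpart of PSMB9, rose by 0.39 on the log2 scale, a call lost with unscaled library sizes (0.14) and in the second table's FPKM values (0.10). PSMB7 fell by 0.52, and PSMB5 fell by 0.29 in a call lost under 7 of its alternatives, among them leaving out DMSO replicate 3 (−0.17), THZ1 replicate 2 (−0.27) or THZ1 replicate 3 (−0.25).

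In the endoplasmic reticulum, 6 of the 7 peptide loading and quality control genes fell and 1 rose, with a median log2 fold change of −0.96. The gene that rose was TAPBPL, which encodes TAPBPR, a tapasin relative that edits class I peptides outside the loading complex. It had 30.4, 32.6 and 30.6 CPM with DMSO and 89.8, 94.3 and 86.5 CPM after THZ1, for a log2 fold change of 1.53 (SE 0.09, edgeR adjusted p = 6.5e-17) beside the −0.09 of TAPBP itself. ERAP2, an aminopeptidase that trims peptides, fell most, from 77.1 ± 4.10 to 13.2 ± 1.90 CPM (SD, n = 3), with a log2 fold change of −2.54, against −0.40 for ERAP1, its partner. The chaperones CALR and CANX fell by 1.28 and 0.81 on the log2 scale, PDIA3, the oxidoreductase of the loading complex, by 0.96, and UGGT1, the glycosylation sensor that sends unloaded class I molecules back for loading, by 2.08.

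**Figure D4:**
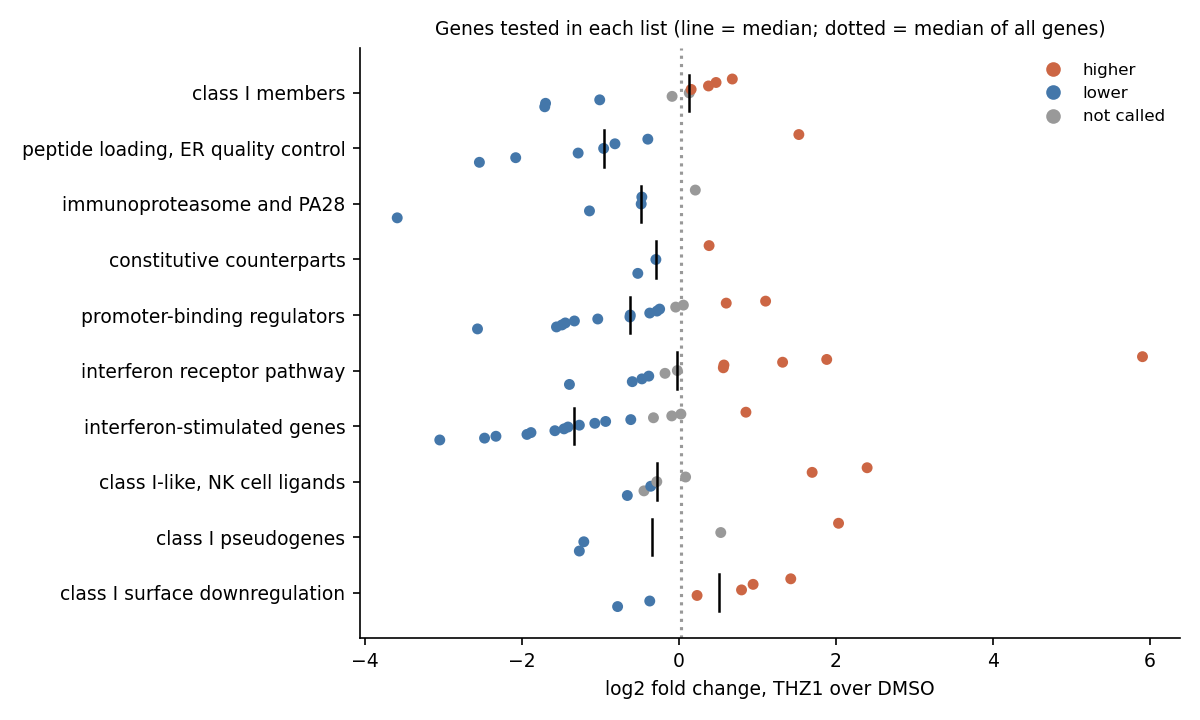
Log2 fold change of each gene tested in the 9 class I genes and in 9 lists of related genes, coloured by the edgeR call, with a line at the median of each list and a dotted line at the median of all genes tested. Peptide loading, promoter-binding regulators and interferon-stimulated genes lie mostly left of 0, while genes listed under class I surface downregulation lie mostly right.

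Genes around interferon signalling, which induces class I genes, were mixed at the receptors and mostly lower downstream. Of the 11 genes of the interferon receptor pathway, 5 rose, 4 fell and 2 were not called, with a median log2 fold change of −0.02. SOCS1, a feedback inhibitor of the pathway, was the highest and rose from 1.65, 1.31 and 0.506 CPM to 59.6, 76.7 and 75.7 CPM, a log2 fold change of 5.91 (SE 0.18, edgeR adjusted p = 1.6e-23). IFNGR2, a chain of the interferon gamma receptor, rose by 1.32 on the log2 scale, a call lost in the deposited FPKM values (0.31). Of 20 interferon-stimulated genes outside class I, 16 were tested, of which 12 fell, 1 rose and 3 were not called, with a median of −1.34. ISG15, a ubiquitin-like protein, was the one that rose, with a log2 fold change of 0.85, while XAF1 was the lowest (−3.05), and the guanylate-binding protein GBP1 and the tethering protein BST2 had values of −1.94 and −1.07.

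Molecules related to class I or sensed by NK cells moved in both directions. Of 10 listed, 7 were tested, of which 2 rose, 2 fell and 3 were not called. HLA-G, a non-classical heavy chain of the placenta, had 0 counts in each DMSO library and 1, 0 and 3 with THZ1, at or under the floor. ULBP2, a ligand of the activating NK cell receptor NKG2D, rose from 8.97 ± 1.01 to 47.4 ± 2.26 CPM (SD, n = 3), a log2 fold change of 2.40 (SE 0.12, edgeR adjusted p = 2.3e-18). MICA, another NKG2D ligand, fell by 0.36 on the log2 scale in a call lost with RLE factors (−0.29), upper quartile factors (−0.17), DESeq2 (−0.29) and when each library had to hold 10 counts of a gene (−0.23), and MR1, which presents vitamin metabolites, fell by 0.66.

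Of 9 class I pseudogenes, which resemble the heavy chains in sequence, 4 were tested. HLA-K rose from 1.00 ± 0.379 to 4.13 ± 0.391 CPM (SD, n = 3), HLA-J and HLA-L fell, with log2 fold changes of −1.27 and −1.21, and HLA-H was not called. These 4 stayed far below HLA-B, the highest being HLA-L with 11.4 ± 0.720 CPM with DMSO. A further list of 7 genes concerns the removal of class I molecules from the surface. It includes MARCH ligases that are not specific to class I. Of these 7 genes, 6 were tested, of which 4 rose and 2 fell, with a median of 0.52. With each library left out, 3 to 4 were higher and 1 to 2 lower. TMEM127 and SUSD6, which work with the ubiquitin ligase WWP2 to send class I molecules to degradation, rose by 1.43 and 0.80 on the log2 scale, whereas WWP2 itself fell by 0.78, and the ubiquitin ligase MARCH9 rose by 0.95. Over the 9 lists, 87 genes were listed and 74 tested, of which 45 fell, 17 rose and 12 were not called, beside 41.1% lower and 43.5% higher over all genes tested.

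Levels can be compared between genes only per length. In the deposited FPKM values the order with DMSO was HLA-B at 438 ± 16.7, HLA-C at 368 ± 21.0, B2M at 339.9 ± 5.33, HLA-E at 188 ± 4.02, TAPBP at 90.5 ± 0.762, TAP1 at 55.2 ± 1.89, NLRC5 at 20.1 ± 0.578, TAP2 at 16.1 ± 0.845 and HLA-F at 13.0 ± 0.580 (SD, n = 3). The libraries of neighbouring genes did not overlap, although HLA-C (345 to 384) and B2M (334 to 343) nearly met. Libraries of 1 treatment have nearly the same sorted FPKM values, so these SDs and gaps may not measure the spread between libraries. With THZ1 the first 6 genes kept this order, with HLA-B at 585 ± 23.0, HLA-C at 417 ± 4.40 and B2M at 369 ± 7.81 FPKM, and the last became HLA-F at 4.46 ± 1.10, NLRC5 at 4.30 ± 0.674 and TAP2 at 3.17 ± 0.439. HLA-F and NLRC5 did not differ beyond their spread with THZ1 (3.64 to 5.70 and 3.90 to 5.08). The order at the top depended on the measure. TPM, which divides counts by the length of the annotated exons and scales them to the library, used 4623 exon bases for HLA-B and 3121 for B2M and put B2M first at 767 ± 28.7 with DMSO, HLA-C next at 427 ± 35.6 and HLA-B then at 330.5 ± 21.7, and put TAP2 below HLA-F. In TPM, which was not tested, the classical chains and B2M were not higher with THZ1. B2M was then at 619.8 ± 8.02, HLA-C at 369 ± 6.38 and HLA-B at 329.9 ± 8.30, and HLA-E went from 217 ± 5.05 to 150.2 ± 2.12, TAPBP from 82.4 ± 1.08 to 48.2 ± 1.90 and TAP1 from 67.8 ± 2.59 to 46.1 ± 0.229 (SD, n = 3).

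The span of chromosome 6 from the start of HLA-F to the end of TAPBP (29690552 to 33282061 in GRCh37) holds 7 of the 9 genes, all except B2M and NLRC5. Of 161 genes tested there, 95 were higher, 45 lower and 21 not called, beside 43.5% higher and 41.1% lower over all genes tested. The median log2 fold change was 0.78, beside 0.03 over all genes tested. For its 114 protein-coding genes, 66 were higher, 32 lower and 16 not called, with a median of 0.56. HLA-B lay near these medians, while HLA-F, TAP2 and PSMB9 lay well below them in the same span. HLA-C (0.47), HLA-E (0.16), TAP1 (0.13), TAPBP (−0.09) and PSMB8 (−0.47) also lay below both medians.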

How the data were processed

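RNA-SEQ libraries of NALM6 cells with DMSO or THZ1 were grouped by the labels. The authors filtered the reads, mapped them to GRCh37 with STAR 2.7.3a and deposited raw counts per gene from htseq-count (annotation, strand setting and counter version not given in the sources used here). A second deposited table holds FPKM by RSEM for 16730 genes on a log2 scale, read as log2(FPKM + 1) and taken back to FPKM, where the design had assumed a linear scale. Libraries of 1 treatment have nearly the same sorted values there, so FPKM was not tested as the main result. It also holds the authors' p-values, FDR and fold changes, which were not used.

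Counts were filtered with filterByExpr (minimum count 10, minimum total 15), scaled by TMM and tested across all genes with edgeR's quasi-likelihood test and Benjamini-Hochberg adjustment, called at 0.05 and two-sided. The fit was run on simulated data in which few genes changed, equally often up and down. Most genes were called here, so that run cannot judge the choice of scaling. Ratios of counts were tested by exact permutation. Same-numbered libraries did not deviate together (correlations −0.0040, 0.00097 and 0.021), so no block was used. Replicates differed by more than sampling noise (chi-square per gene 1.78 to 8.61). Symbols and positions came from GENCODE 44 on GRCh37 and promoters from RefSeq GRCh38.p14. Alternatives were RLE, upper quartile and unscaled library sizes, DESeq2, 2 other count filters, a block, each library left out, and limma on FPKM with pseudocounts 1 and 0.1, filtered at a mean FPKM of 0.1 or not.

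The members and lists were chosen with earlier results of these data known. The genes named were the members, PSMB8, PSMB9, HLA-G, RFX5, IRF1 and CIITA, the highest and lowest tested of each list, and tested genes that overlap a member. PDIA3, CALR, CANX, ERAP1, UGGT1, PSME1, PSME2, PSMB5, RFXAP, RFXANK, CREB1, NFYB, NFYC, IRF2, RELA, NFKB1, IFNGR2, GBP1, BST2, MICA, MARCH9, SUSD6, HLA-L and HLA-H were added after their values were seen. Some results are not reported here. Tools were R 4.3.3 (edgeR 4.0.16, DESeq2 1.42.0, limma 3.58.1) and Python 3.11.15 (scipy 1.17.1).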

Additional observations from a re-analysis of the deposited data

How the results depend on the processing

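The direction and call of HLA-B, HLA-C, HLA-F, TAP2 and NLRC5 held under all alternative fits, with ranges of 0.41 to 0.87, 0.18 to 0.67, −1.55 to −0.82, −2.32 to −1.52 and −2.21 to −1.51 on the log2 scale. TPM was used for levels and not tested, and in it the means with DMSO and THZ1 were 330.5 and 329.9 for HLA-B, 427 and 369 for HLA-C and 767 and 619.8 for B2M. Against TMM, the median over all genes shifted by −0.25 with library sizes alone, 0.19 with upper quartile factors, 0.13 with a stricter filter (10 counts in each library) and −0.26 in the deposited FPKM values, and the share of calls that were higher ran from 44.2% to 57.2% (51.4% with TMM). With library sizes alone, 2 members were called higher, and the log2 fold change was −0.090 for HLA-E, 0.13 for B2M, −0.11 for TAP1, −0.33 for TAPBP, −0.038 for PSMB10 and −0.19 for RELA. TAP1 was called higher with RLE factors (0.20), upper quartile factors (0.33), DESeq2 (0.20) and the stricter count filter (0.27), and was −0.034 with its antisense counts added. TAPBP was 0.11 with upper quartile factors, 0.046 with the stricter count filter and −0.17 without a filter, where HLA-E was 0.070 and RELA −0.029. In the deposited FPKM values 5 members were called lower under each of the 3 settings, with HLA-E at −0.095, TAPBP at −0.24, HLA-H at −0.31 (−0.38 with a pseudocount of 0.1) and RELA at −0.035 (−0.036). The filter removed none of the 16730 genes, so the 2 settings with a pseudocount of 1 are the same fit. The FPKM values moved the log2 ratios of HLA-F, TAP1, TAP2, TAPBP and NLRC5 over B2M to −1.69, −0.11, −2.47, −0.36 and −2.35, of TAP1 over TAP2 to 2.37 and of TAP1 over PSMB9 to 4.27. The cause of these moves was not tested. With each library left out, 3 to 4 members were higher and 3 lower, and HLA-E lay between 0.089 and 0.20. Of 767 values of 46 further named genes, 724 kept direction and call, 25 lost and 9 gained a call, and 9 reversed. These numbers count the 2 identical FPKM fits separately.

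The replicate numbers did not pair the libraries, and the correlations are given with the processing. With the replicate number as a block, 4 members were higher and 3 lower as before, with log2 fold changes of 0.69 for HLA-B and −1.70 for NLRC5, and 7181 of all genes were higher and 6786 lower. The block changed no call among the 9 genes, and paired ratios cannot go below p = 0.25 in an exact sign-flip test.

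HLA-F, PSMB9 and the pseudogenes rest on low counts with THZ1, and 3 libraries a treatment limit every exact permutation test of a ratio to p = 0.1.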
